A study of Rattus norvegicus with 6 samples.

Results

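Integrins are the paired α and β receptors through which cells hold the extracellular matrix, and focal adhesions are the protein plaques that tie them to actin on the inner side of the membrane. The gene group described here holds 45 genes: 19 integrin subunits, 21 adhesion plaque genes and 5 other matrix receptors or membrane partners (Ddr1, Ddr2, Sdc1, Sdc4 and Cav1). Members were chosen by symbol, with earlier results of these data known, and all 45 were found among the 22573 gene rows used. RNA sequencing was done on nucleus pulposus cells, from the soft core of the intervertebral disc, of Sprague Dawley rats. The 3 libraries of the cyclic tensile strain group came from cells stretched on a Flexcell tension system (18% elongation, 0.2 Hz, 24 h). The other 3 libraries carry the class label control. The series set out to learn how such strain acts on the circadian clock of these cells. The stretching protocol is written on the control samples too, so that they were left unstretched rests on that class label alone. No label gives the animals' age or sex, the passage of the cells, or whether each replicate is an animal or a culture of its own. The p-values therefore measure the spread between these libraries, which may be technical.

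An integrin binds its ligand according to its α and β pair. The α1, α2, α10 and α11 subunits pair with β1 and bind collagens. The α5, α8 and αv subunits bind ligands that carry the RGD tripeptide, such as fibronectin, vitronectin and the latent form of TGF-β. The α3, α6 and α7 subunits bind laminins. On the inner side, talin and kindlin bind the β tail and switch the receptor on, vinculin and α-actinin link talin to actin, and focal adhesion kinase, paxillin and the ILK complex assemble the signalling part of the plaque. Zyxin and its LIM-domain relatives join adhesions under tension. Nucleus pulposus cells are known to attach to both laminin and fibronectin.

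The deposited values carry no unit and were taken as FPKM, fragment counts scaled to transcript length and library size. On that reading levels of different genes can be set side by side, while the depth of the libraries is unknown. Genes whose 6 libraries averaged 1 FPKM or more were tested on log2(FPKM + 1) with limma, and "called" means a Benjamini-Hochberg adjusted p under 0.05 over all 10180 genes tested. Between 14378 and 14582 rows were above 0 in a library. The first principal component, with 78.6% of the variance, placed the strain libraries at 20.6 to 35.9 and the controls at -32.7 to -24.1. On the next component strain replicate 3 stood apart, at -17.5, from the other strain libraries at 9.7 and 10.8. Control replicate 2 was the control nearest to the strain libraries on the first. Of 14 nucleus pulposus markers in the files, 8 passed the filter, of which 5 were called higher under strain and 0 lower. That is 62.5% called, beside 35.4% of all tested genes (16.4% higher). The summed level of the list was 164.8 to 181.8 FPKM under strain and 125.3 to 155.2 FPKM in controls. The 5 were Pax1 (2.98-fold), Ncam1 (2.42-fold), Krt8 (1.99-fold), Sox9 (1.87-fold) and Foxf1 (1.59-fold), and their part in the members' changes was not tested. Acan, the cartilage proteoglycan aggrecan, averaged 38.6 ± 3.18 FPKM under strain and 31.1 ± 10.6 FPKM in controls (SD, n = 3 each) and was not called (adjusted p = 0.199). Cd24 and Hif1a averaged lower under strain and were not called either (adjusted p = 0.106 and 0.487). Under the filter, Krt18 and Car12 overlapped between groups, and Col2a1 averaged 0.898 FPKM under strain and 0.0423 FPKM in controls. The defining notochordal genes were near the bottom of the scale, with T (brachyury) at 0.0485 to 0.119 FPKM, Krt19 at 0 to 0.071 FPKM and Shh listed at 0 in all 6 libraries.

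Of the 45 genes, 38 passed the filter, and 8 of these were higher and 8 lower under strain. The share called, 42.1%, has to be read against all tested genes, of which 35.4% were called (16.4% higher and 19% lower). The integrins moved further than the plaque. Among 12 tested integrin subunits 2 were higher and 5 lower (58.3% called), with a median absolute log2 fold change of 0.76. Among 21 plaque genes 5 were higher and 2 lower (33.3% called, near the share of all tested genes), with a median absolute change of 0.14. All tested genes had a median absolute change of 0.24. Leaving out control replicate 1 or control replicate 3 brought the members called higher to 5. The share of all genes called was then 23.2% and 27.5%. Signed medians were -0.30 for integrins, 0.07 for plaque genes and -0.01 for all tested genes. Since the libraries are bulk samples, fewer cells of a type and less RNA per cell cannot be told apart in any of these values.

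**Figure D1:**
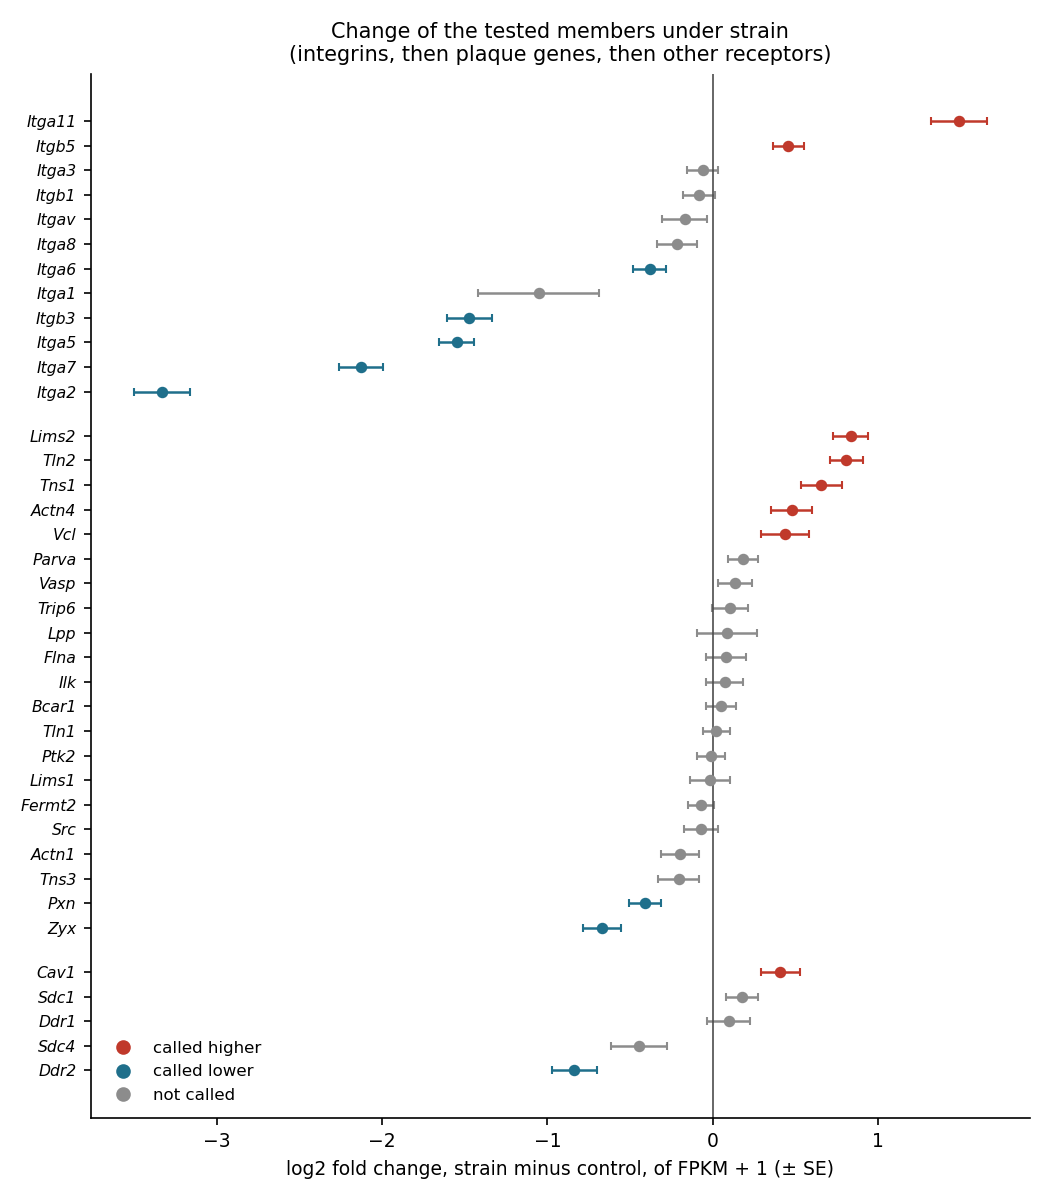
Log2 fold change (strain minus control, of FPKM + 1) with its standard error for the 38 tested genes, grouped as integrins, plaque genes and other receptors, 3 libraries per group. Itga2 lies lowest at -3.33 and Itga11 highest at 1.49. Of 21 plaque genes 14 were not called (33.3% called, beside 35.4% of all tested genes).

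Among the collagen-binding integrins Itga2 was called lower and Itga11 higher. Itga2 encodes α2, a receptor for fibrillar collagen I. It stood at 0.599, 0.439 and 0.286 FPKM in the strain libraries, against 16.2, 10.06 and 15.0 FPKM in controls. Every strain library lay far under every control (log2 fold change -3.33 ± 0.17 SE, adjusted p = 1.63e-05 by limma). Because of the added 1 FPKM this understates the drop, and with a pseudocount of 0.1 the change was -4.69. Itga2 passed the filter only through its control values (mean 13.75 FPKM, against 0.442 FPKM under strain).

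Itga11, which encodes the collagen receptor α11 of fibroblast-type cells, went the other way. It reached 57.8, 69.0 and 75.2 FPKM under strain, against 18.9, 30.4 and 21.5 FPKM in controls. The groups did not overlap, and the strain mean was 2.85-fold the control mean (log2 fold change 1.49 ± 0.17 SE, adjusted p = 0.000278).

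Itga1, the gene of α1, a receptor for collagen IV and fibrillar collagens, was at 31.7, 32.5 and 12.0 FPKM under strain, against 44.5, 52.03 and 51.6 FPKM in controls. All strain values lay under all controls, but strain replicate 3 stood far from the other strain libraries and Itga1 was not called (log2 fold change -1.05 ± 0.37 SE, adjusted p = 0.069). Without strain replicate 3 it was called lower, by a smaller amount with a smaller error (-0.60 ± 0.09 SE, adjusted p = 0.0029). In the GRCr8 gene table Itga1 and Itga2 are neighbours with 0 protein-coding genes between them. The gene Pelo lies within the span of Itga1 and was itself called lower (33.1 ± 5.12 FPKM under strain, 61.6 ± 8.2 FPKM in controls, SD, n = 3 each). Whether fragments were counted by strand is not recorded in the labels or files, so fragments where both genes overlap cannot be told apart. Itga10, the cartilage-type α10, did not pass the filter, at 0.122 to 0.224 FPKM under strain and 0.0301 to 0.176 FPKM in controls.

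The sum of the collagen class overlapped between groups while its composition differed. Over the 4 α subunits it held 90.2, 102.1 and 87.7 FPKM under strain, against 79.8, 92.6 and 88.1 FPKM in controls. Itga11 made up 64.1%, 67.6% and 85.8% of that sum under strain, against 23.7%, 32.8% and 24.4% in controls. The share of Itga2 was 0.474% ± 0.173 under strain and 16.1% ± 4.8 in controls (SD, n = 3 each). Itga1 supplied 26.9% ± 11.6 under strain and 56.8% ± 1.48 in controls, with strain replicate 3 at 13.7%. These sums over members are given without a test.

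**Figure D2:**
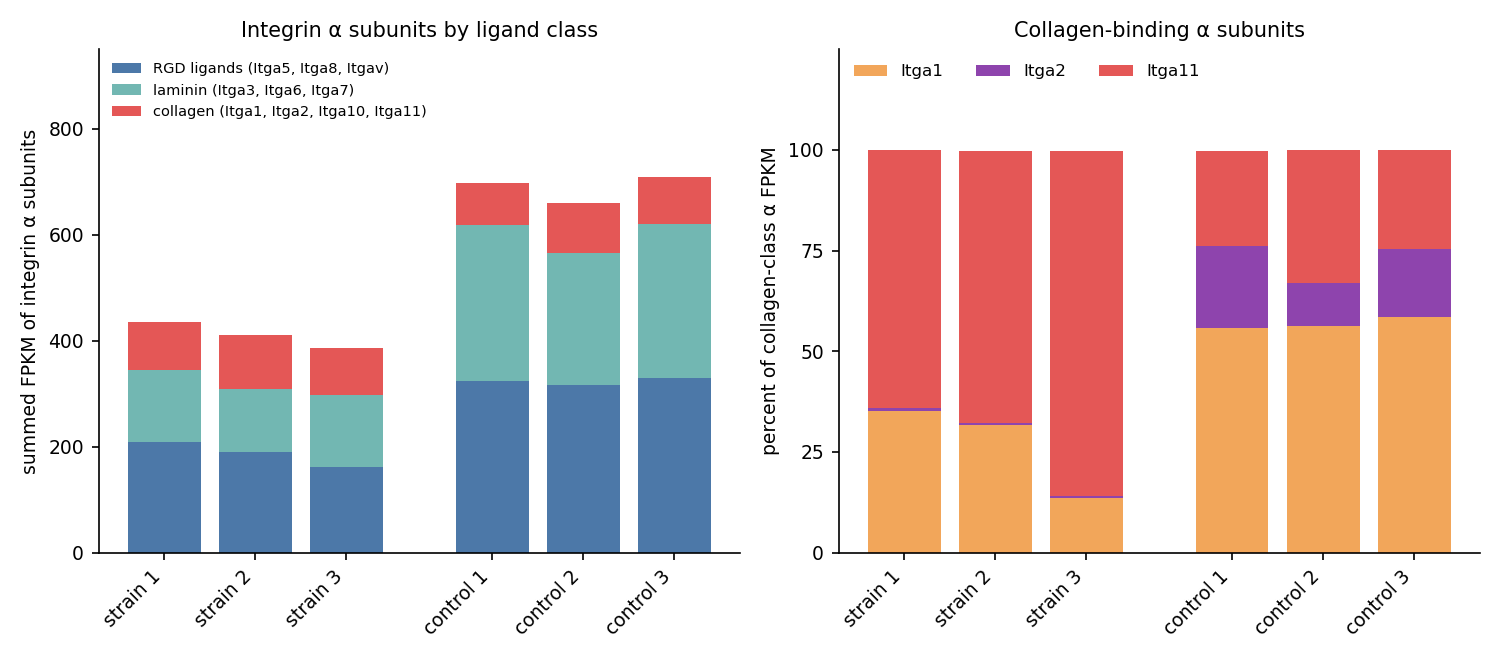
Left, summed FPKM of the integrin α subunits in each library, stacked by ligand class. Right, the percent of the collagen-class sum held by Itga1, Itga2 and Itga11. The strain libraries reach 386.3 to 436.1 FPKM in all, against 659.4 to 709.1 FPKM in controls, and Itga11 takes most of the collagen class under strain.

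The promoter windows of Itga2 and Itga11 are shown because these were the largest fall and the largest rise of the group. Each runs from 250 bases before to 50 bases after the gene's start in RefSeq (build GRCr8), 5′ to 3′ on the gene's strand. Capitals mark every match, on either strand, to 5 motifs: AP-1 (TGANTCA), TEAD (GGAATG), the E-box CACGTG, the GC box GGGCGG and the CArG box, which is the site of serum response factor. In both windows the matches were GC boxes alone, 3 in Itga2 and 1 in Itga11. The Itga2 window lies at chr2:48354460-48354759 on the minus strand, and that of Itga11 at chr8:72041182-72041481 on the plus strand.
Itga2: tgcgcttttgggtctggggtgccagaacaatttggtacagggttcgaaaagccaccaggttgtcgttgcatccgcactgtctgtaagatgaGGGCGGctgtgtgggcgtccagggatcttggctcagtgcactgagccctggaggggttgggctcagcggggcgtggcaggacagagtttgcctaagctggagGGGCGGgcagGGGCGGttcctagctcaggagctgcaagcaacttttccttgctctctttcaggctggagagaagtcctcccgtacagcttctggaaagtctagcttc
Itga11: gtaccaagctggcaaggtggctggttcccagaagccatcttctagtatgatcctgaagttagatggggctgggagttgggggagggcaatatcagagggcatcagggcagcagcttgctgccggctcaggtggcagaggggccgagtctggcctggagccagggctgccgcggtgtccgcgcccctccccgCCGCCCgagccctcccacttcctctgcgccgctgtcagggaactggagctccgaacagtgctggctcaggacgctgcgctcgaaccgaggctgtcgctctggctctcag

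Of the 45 genes, 34 had such a window in the table. A GC box was found in 22 of them (64.7%), against 34.9% of all 27457 windows of the same length. TEAD letters were in 10 (29.4%, against 13.9% of all windows), the E-box in 2 (5.88%, against 6.65%) and the CArG box in 2 (5.88%, against 1.64%). The AP-1 letters were in 0 of 34, against 7.33% of all windows. Among the genes with a window, 6 were called higher and 4 lower. TEAD letters stood in 1 of each. No pair of matches to different motifs shared a base. The members' windows held from 41.7% (Itgb6) to 76.7% (Itgb5) G and C, and the median of all windows was 52.3%. All members' windows other than those of Itga10, Itgb6 and Itgb7 lay above that median. The motif shares were not adjusted for base composition, and its part in them was not tested. A match is only a run of letters, and its absence says nothing about binding outside the window.

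Of the 5 tested RGD receptor genes 2 fell and 1 rose (60% called, beside 35.4% of all tested genes). Itga5, whose α5 subunit forms the main fibronectin receptor with β1, was at 67.6, 55.0 and 60.6 FPKM under strain, against 186.9, 166.6 and 187.8 FPKM in controls. No strain library came near a control, and the strain mean was 2.95-fold lower (log2 fold change -1.55 ± 0.10 SE, adjusted p = 3.39e-05). Itgb3 encodes β3, a partner of αv in the vitronectin receptor. It stood at 4.47, 4.56 and 3.04 FPKM under strain, against 11.9, 12.7 and 13.9 FPKM in controls, a 3.19-fold lower mean (-1.47 ± 0.14 SE, adjusted p = 0.000117).

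Itgb5, the gene of β5, another partner of αv, rose. It measured 137.9, 140.0 and 159.2 FPKM under strain, against 103.1, 109.0 and 104.5 FPKM in controls. The groups were apart although the step was 1.38-fold (0.46 ± 0.09 SE, adjusted p = 0.0053). The ratio of Itgb3 to Itgb5 was 0.028 ± 0.0077 under strain and 0.122 ± 0.01 in controls (SD, n = 3 each).

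The RGD-binding α subunits other than α5 were not called. Itgav, which encodes αv, had 66.7, 63.2 and 46.0 FPKM under strain, against 64.1, 67.3 and 64.4 FPKM in controls. Itga8, the α8 chain of a nephronectin and fibronectin receptor, had 73.99, 71.2 and 55.3 FPKM under strain, against 73.04, 81.6 and 77.4 FPKM in controls. In both genes the groups overlapped, and strain replicate 3 was the lowest library of all. The log2 fold changes were -0.17 ± 0.13 SE for Itgav and -0.22 ± 0.12 SE for Itga8 (adjusted p = 0.36 and 0.19).

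The β8 and β6 partners of αv lay under the filter. Itgb8 averaged 0.577 ± 0.251 FPKM under strain and 0.95 ± 0.096 FPKM in controls (SD, n = 3 each), and Itgb6, an epithelial subunit, stayed at or below 0.057 FPKM in every library. The α4 and α9 subunits, and β7, a leukocyte partner of α4, did not pass the filter either. Itga4 ranged over 0.329 to 0.574 FPKM under strain and 0.315 to 0.369 FPKM in controls, Itga9 reached at most 0.176 FPKM, and Itgb7 was listed at 0 in all 6 libraries. Of the 45 genes 7 lay under the filter, these 5 with Itga10 and Itgb4. Fitted with no filter on low values, the 6 of them that were above 0 in any library had adjusted p between 0.126 for Itgb8 and 0.396 for Itgb4.

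Among laminin receptors Itga7 fell most. It encodes α7, known best from skeletal and smooth muscle, and had 44.99, 35.7 and 40.1 FPKM under strain, against 200.3, 148.5 and 191.8 FPKM in controls. The groups were far apart, with a 4.48-fold lower strain mean (log2 fold change -2.13 ± 0.13 SE, adjusted p = 2.5e-05). Of 6 muscle markers in the files 3 passed the filter, Des, Myh11 and Cnn1, with adjusted p of 0.097, 0.44 and 0.91, and the list's summed level was 66.1 to 86.9 FPKM under strain and 58.7 to 82.9 FPKM in controls. Among them were the smooth muscle genes Cnn1 (48.0, 47.8 and 64.6 FPKM under strain, against 41.1, 59.6 and 56.98 FPKM in controls) and Myh11 (15.3 to 17.3 FPKM under strain, 15.3 to 21.01 FPKM in controls). Myog, a skeletal muscle factor, was listed at 0 in all libraries other than strain replicate 2 (0.0336 FPKM).

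Itga6, whose α6 subunit is a laminin receptor described on nucleus pulposus cells, was lower by a small step. Its values were 14.7, 14.4 and 12.6 FPKM under strain, against 16.9, 19.98 and 18.3 FPKM in controls (-0.38 ± 0.10 SE, adjusted p = 0.017). The highest strain library lay below the lowest control. Without control replicate 2 the call was lost (adjusted p = 0.062).

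Itga3, the α3 receptor for epithelial-type laminins, overlapped between groups. It had 77.4, 69.7 and 83.6 FPKM under strain, against 76.7, 82.4 and 80.9 FPKM in controls (-0.06 ± 0.09 SE, adjusted p = 0.66). Itgb4, the β4 subunit of epithelial hemidesmosomes, stayed at or below 0.191 FPKM in every library. Of 6 epithelial markers 0 passed the filter. Their summed level was 0.0409 to 0.083 FPKM under strain and 0.0448 to 0.101 FPKM in controls, with Cdh1, Krt5 and Krt14 listed at 0 throughout.

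Itgb1, the β1 chain shared by the collagen, laminin and fibronectin receptors, was the most abundant member, above 99% of tested genes. It had 448.2, 466.8 and 469.2 FPKM under strain, against 468.7, 516.4 and 483.5 FPKM in controls. The groups overlapped and it was not called (-0.08 ± 0.10 SE, adjusted p = 0.53). The sum of all α subunits was 411.5 ± 24.9 FPKM under strain and 688.9 ± 26.1 FPKM in controls, 1.67-fold lower under strain. The ratio of that sum to Itgb1 was 0.893 ± 0.075 under strain and 1.41 ± 0.117 in controls (SD, n = 3 each).

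The order of the α subunits differed between the groups. Under strain Itga3 led with a mean of 76.9 FPKM, followed by Itga11 (67.3), Itga8 (66.8), Itga5 (61.1), Itgav (58.6), Itga7 (40.3), Itga1 (25.4), Itga6 (13.9) and Itga2 (0.442). In controls Itga5 (180.5) and Itga7 (180.2) led, followed by Itga3 (79.98), Itga8 (77.3), Itgav (65.2), Itga1 (49.4), Itga11 (23.6), Itga6 (18.4) and Itga2 (13.8). Libraries of neighbours overlapped in the first 5 places under strain and for Itga1 with Itga6, and in controls for Itga5 with Itga7, Itga3 with Itga8 and Itga11 with Itga6. As a share of all α FPKM, the collagen class held 22.7% ± 2.05 under strain and 12.6% ± 1.31 in controls. The laminin class held 31.9% ± 3.13 under strain and 40.4% ± 2.1 in controls, and the RGD class 45.2% ± 2.99 under strain and 46.9% ± 0.81 in controls (SD, n = 3 each).

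**Figure D3:**
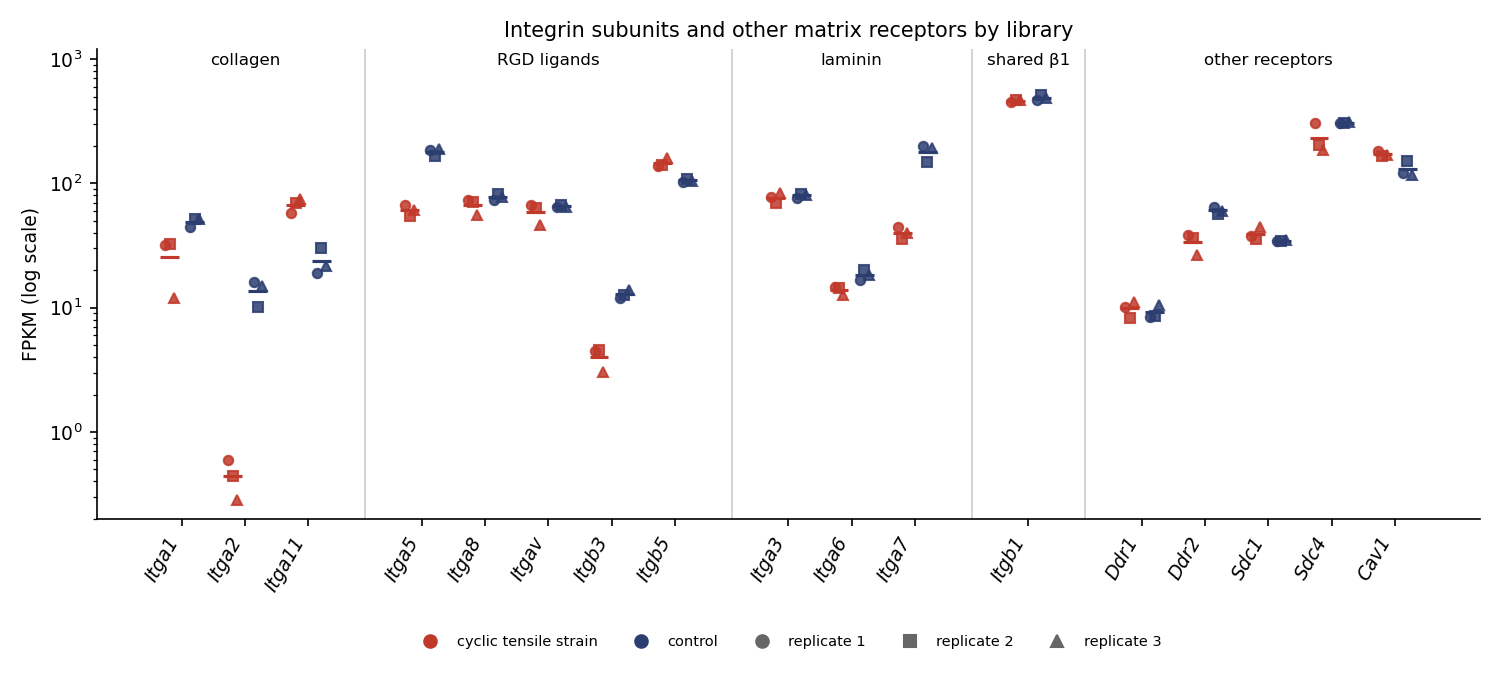
FPKM on a log axis of the integrin subunits that passed the filter and of the other receptors, strain libraries (red) left of controls (blue), one symbol per replicate and a bar at each group mean. Itga2, Itga5, Itga7 and Itgb3 lie lower in every strain library and Itga11 higher, while Itgb1 overlaps; strain replicate 3 (triangle) is low for Itga1, Itgav and Itga8.

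Receptors outside the integrin family moved in both directions. Ddr2, a receptor tyrosine kinase for fibrillar collagen, had 38.3, 36.4 and 26.6 FPKM under strain, against 65.1, 56.5 and 60.05 FPKM in controls. All strain values lay below all controls (log2 fold change -0.84 ± 0.14 SE, adjusted p = 0.0019). Ddr1, the related kinase that also binds collagen IV, averaged 9.87 ± 1.42 FPKM under strain and 9.15 ± 1.23 FPKM in controls (SD, n = 3 each; adjusted p = 0.59).

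Cav1, the caveolin that coats caveolae and is found beside β1 integrins, was higher, with 183.4, 165.2 and 169.3 FPKM under strain, against 121.5, 152.1 and 117.6 FPKM in controls (0.41 ± 0.12 SE, adjusted p = 0.024). Its call was lost without strain replicate 1, control replicate 1 or control replicate 3 (adjusted p = 0.074, 0.096 and 0.095). Sdc4, a syndecan that joins integrins in focal adhesions, split the strain group. Its values were 305.5, 203.7 and 185.1 FPKM under strain, against 308.0, 304.7 and 311.4 FPKM in controls. Strain replicate 1 lay within the control range, and the gene was not called (-0.45 ± 0.17 SE, adjusted p = 0.072) except when that library was left out (-0.66 ± 0.12 SE, adjusted p = 0.0033). Sdc1, another syndecan, had 37.7, 36.0 and 44.6 FPKM under strain, against 34.3, 34.3 and 35.03 FPKM in controls, without overlap and without a call (adjusted p = 0.18). After quantile normalization Sdc1 was called higher (adjusted p = 0.035).

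In the plaque, the genes that activate integrins stayed close together between the groups apart from the minor talin. Tln1, the main talin, had 63.97, 63.5 and 63.5 FPKM under strain, against 60, 66.4 and 61.6 FPKM in controls. Fermt2, the kindlin of mesenchymal cells, had 60.5, 60.3 and 60.4 FPKM under strain, against 60.01, 65.8 and 64.8 FPKM in controls. Neither was called (adjusted p = 0.85 and 0.53), and the strain libraries lay within 1 FPKM of each other in both genes.

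Tln2 encodes the second talin, which is abundant in muscle and brain. It rose to 11.0, 11.03 and 9.41 FPKM under strain, against 5.92, 5.57 and 5.16 FPKM in controls. The groups were well apart (1.89-fold, log2 fold change 0.81 ± 0.10 SE, adjusted p = 0.00047). Its share of summed talin FPKM was 14.1% ± 1.06 under strain and 8.15% ± 0.72 in controls (SD, n = 3 each).

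The ILK complex, in which the pseudokinase ILK is held by a PINCH and a parvin, showed the same kind of shift in its PINCH genes. Lims2, encoding PINCH2, rose to 8.43, 8.06 and 10.04 FPKM under strain, against 4.24, 4.68 and 4.57 FPKM in controls (1.97-fold, 0.84 ± 0.11 SE, adjusted p = 0.0005). Lims1, encoding PINCH1, had 13.6, 15.2 and 13.2 FPKM under strain, against 12.5, 16.95 and 13.2 FPKM in controls, and was not called (adjusted p = 0.94). Lims2 thus made up 38.7% ± 4.24 of summed PINCH FPKM under strain and 24.2% ± 2.22 in controls (SD, n = 3 each).

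Ilk itself had 92.1, 86.6 and 114.0 FPKM under strain, against 90.0, 94.5 and 91.7 FPKM in controls. Parva, α-parvin, had 31.6, 31.2 and 33.0 FPKM under strain, against 28.3, 30.4 and 25.3 FPKM in controls. The Ilk groups overlapped, with strain replicate 3 above every other library, while those of Parva did not overlap, and neither gene was called (adjusted p = 0.65 and 0.15). Quantile normalization brought Parva past the threshold (0.23 ± 0.08 SE, adjusted p = 0.045). In the gene table Ilk overlaps Taf10 and Tln1 overlaps Creb3, so their values carry the same doubt as that of Itga1.

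Of the signalling core 1 of 4 genes was called (25%, beside 35.4% of all tested genes). Pxn, the scaffold paxillin, had 10.05, 9.85 and 11.4 FPKM under strain, against 15.1, 14.3 and 13.1 FPKM in controls (1.36-fold lower, -0.41 ± 0.10 SE, adjusted p = 0.011). All strain libraries lay below the controls, but the call was lost without control replicate 1 (adjusted p = 0.054).

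Ptk2, which encodes focal adhesion kinase, showed 10.6, 10.6 and 10.1 FPKM under strain, against 10.3, 10.3 and 10.96 FPKM in controls. Src, the kinase recruited by it, had 12.5, 12.4 and 15.5 FPKM under strain, against 14.1, 14.2 and 14.1 FPKM in controls. Bcar1, the stretch-sensitive adaptor p130Cas, had 17.2, 17.3 and 19.5 FPKM under strain, against 16.7, 18.2 and 17.1 FPKM in controls. The groups of all 3 overlapped, and their log2 fold changes were -0.01, -0.07 and 0.05 with standard errors of 0.08, 0.10 and 0.09.

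Genes that link the plaque to actin had 3 rises among 6 (50% called, beside 35.4% of all tested genes). Tns1, tensin 1 of fibrillar adhesions, rose to 18.3, 19.6 and 17.7 FPKM under strain, against 9.25, 12.5 and 12.7 FPKM in controls (1.61-fold, 0.66 ± 0.12 SE, adjusted p = 0.0038). Actn4, α-actinin 4, had 105.7, 109.6 and 130.9 FPKM under strain, against 75.4, 96.04 and 76.8 FPKM in controls (1.39-fold, adjusted p = 0.017). Groups did not overlap in either, but the call of Actn4 was lost without control replicate 1 or control replicate 3 (adjusted p = 0.075 and 0.064).

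Vcl, vinculin, had 75.9, 76.9 and 75.2 FPKM under strain, against 46.1, 71.2 and 52.9 FPKM in controls. The strain libraries were nearly equal, whereas control replicate 2 reached close to them. The call (0.44 ± 0.14 SE, adjusted p = 0.042) was lost in 7 of 14 alternatives, among them the omission of any single library other than control replicate 2 (adjusted p = 0.079 to 0.149). Its promoter window, at chr15:3404751-3405050 on the minus strand, is shown as the one among the higher genes with TEAD letters, which begin at -167 from the gene's start, followed by 4 GC boxes.
Vcl: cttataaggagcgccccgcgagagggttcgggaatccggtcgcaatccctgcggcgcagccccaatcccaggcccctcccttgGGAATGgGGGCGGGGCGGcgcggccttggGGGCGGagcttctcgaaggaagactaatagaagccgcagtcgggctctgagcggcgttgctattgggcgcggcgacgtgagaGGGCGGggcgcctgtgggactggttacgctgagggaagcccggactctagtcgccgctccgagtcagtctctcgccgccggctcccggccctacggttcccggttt

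Actn1, α-actinin 1, had 135.5, 130.2 and 135.4 FPKM under strain, against 138.5, 182.1 and 143.8 FPKM in controls. Flna, filamin A, had 302.8, 310.6 and 286.6 FPKM under strain, against 245.0, 328.6 and 283.4 FPKM in controls. Tns3, tensin 3, had 12.2, 10.5 and 8.54 FPKM under strain, against 11.6, 12.4 and 12.3 FPKM in controls. None of these was called (adjusted p = 0.21, 0.64 and 0.22), and control replicate 2 was the highest control for all 3.

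Zyx, the tension sensor zyxin, was the plaque gene with the largest fall. It had 92.5, 82.2 and 109.9 FPKM under strain, against 148.8, 159.1 and 144.1 FPKM in controls. Every strain library lay below every control (1.59-fold lower, log2 fold change -0.67 ± 0.12 SE, adjusted p = 0.0026). The zyxin relatives and the zyxin-bound actin polymerisation factor VASP were not called. Trip6 had 25.4, 24.4 and 30.96 FPKM under strain, against 23.7, 27.2 and 23.7 FPKM in controls, and Vasp 37.1, 34.5 and 42.8 FPKM under strain, against 32.0, 34.7 and 36.8 FPKM in controls. Lpp averaged 4.87 ± 1.42 FPKM under strain and 4.43 ± 0.55 FPKM in controls (SD, n = 3 each). Adjusted p were 0.49, 0.33 and 0.74 for Trip6, Vasp and Lpp.

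The Zyx window is printed because it was the one among the lower genes with TEAD letters (beginning at -205 from the gene's start) and with an E-box, the sequence bound by CLOCK and BMAL1 (at -46). It lies at chr4:72203750-72204049 on the plus strand.
Zyx: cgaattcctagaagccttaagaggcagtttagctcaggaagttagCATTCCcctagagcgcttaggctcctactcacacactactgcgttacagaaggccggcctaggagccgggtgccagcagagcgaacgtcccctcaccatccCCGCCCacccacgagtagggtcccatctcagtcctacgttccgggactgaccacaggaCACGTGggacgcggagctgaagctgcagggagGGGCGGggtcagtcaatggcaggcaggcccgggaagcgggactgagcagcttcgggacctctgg

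**Figure D4:**
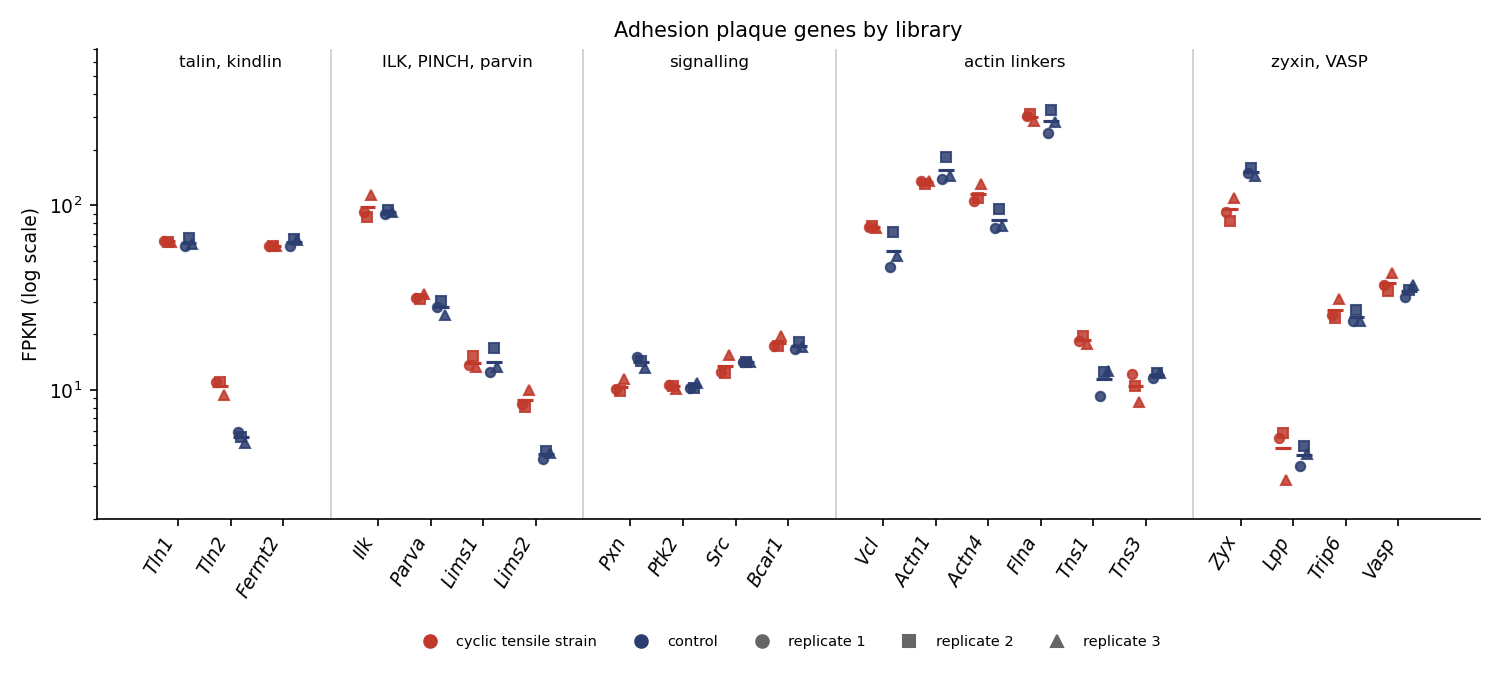
FPKM on a log axis of the 21 adhesion plaque genes, strain libraries (red) left of controls (blue), one symbol per replicate and a bar at each group mean, grouped by role. Tln2, Lims2 and Tns1 are higher and Zyx and Pxn lower in every strain library; control replicate 2 (square) is the highest control for 16 of the 21 genes.

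Single libraries carried part of this picture. Groups did not overlap in 20 of 38 tested members (52.6%), beside 51.9% of all tested genes. Control replicate 2 was the highest control for 16 of 21 plaque genes and the lowest for 0, and for 6 of the 8 members called higher. Control replicate 1 was the lowest control for 16 of the 21. With control replicate 1 or control replicate 3 left out, 5 members in place of 8 were called higher, and 3 plaque genes in place of 5. Calls fell over all tested genes too, to 1060 and 1228 higher in place of 1672. Strain replicate 3 was the highest or lowest strain library for 33 of 38 tested members. Among controls, control replicate 1 was the highest or lowest for 32 and control replicate 2 for 30. Every gene has a highest and a lowest library in each group, and these counts were not made over all tested genes. Leaving out strain replicate 3 gave 7 members higher and 9 lower, with the call of Vcl lost and that of Itga1 gained. Itga2, Itga5, Itga7, Itgb3, Itga11, Itgb5, Ddr2, Tln2, Lims2, Tns1 and Zyx were called in all 14 alternatives run.

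The genes for integrin ligands are a list chosen with earlier results of these data known. Of 34 ligand genes 28 passed the filter, 15 were higher and 5 lower (71.4% called, beside 35.4% of all tested genes; median log2 fold change 0.42, beside -0.01). The largest rises were Col6a3 (2.83 ± 0.21 SE), a chain of collagen VI, the fibrillar collagens Col3a1 (2.01 ± 0.19) and Col1a1 (1.46 ± 0.15), and the matricellular gene Thbs1 (1.27 ± 0.19). Col1a2, the other chain of collagen I, was not called (-0.32 ± 0.12 SE, adjusted p = 0.068). It averaged 70.5 FPKM under strain and 88.95 FPKM in controls. Fn1, the ligand of α5β1, was at 5041, 5566 and 4932 FPKM under strain, against 2591, 3081 and 2717 FPKM in controls (0.89 ± 0.13 SE, adjusted p = 0.00099). Every strain library was above every control for Fn1 and below every control for its receptor gene Itga5. With strain replicate 1, strain replicate 2, control replicate 1 or control replicate 3 left out, 3 ligand genes in place of 5 were called lower. In those omissions all genes called lower ranged from 1303 to 1705, in place of 1936.

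Ligand genes that fell included the basement membrane collagens Col4a1 (-1.05 ± 0.09 SE) and Col4a2 (-0.77 ± 0.09), and the cytokine gene Tgfb1 (-0.36 ± 0.11), whose latent form αv integrins bind. Among laminin chains, Lama5 was higher (0.43 ± 0.09 SE, adjusted p = 0.0068), Lamb1 was lower (-0.27 ± 0.08 SE, adjusted p = 0.024), and Lama3, Lama4, Lamb2 and Lamc1 were not called. Lama1, Lama2 and Lamb3 lay under the filter. Vtn, vitronectin, was listed at 0 in all 6 libraries. Fn1, Col1a2 and the laminin chains fall outside the rule for named genes and were picked after their values were seen.

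The wider adhesome, 60 further genes found in the files, had 55 tested members with 13 higher and 14 lower (49.1% called, beside 35.4% of all tested genes; median log2 fold change 0.03). Its largest rises were Sorbs2 (0.91 ± 0.21 SE), a vinculin-binding adaptor, the caveolin Cav2 (0.74 ± 0.11), the filamin Flnc (0.69 ± 0.14) and the syndecan Sdc2 (0.62 ± 0.10). Genes of the list that fell included Rap1b (-1.18 ± 0.09 SE), a small GTPase that promotes talin recruitment, the hyaluronan receptor Cd44 (-0.995 ± 0.13), and the phosphatase Ptpn12 (-0.87 ± 0.11), which acts on p130Cas. The related gene Rap1a, in the same list, was called higher (0.35 ± 0.09 SE, adjusted p = 0.012). Without control replicate 1 the list had 7 genes higher and 8 lower, and it had 9 and 8 lower without control replicate 2 and control replicate 3. Those 3 omissions left 23.2%, 29.5% and 27.5% of all tested genes called.

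**Figure D5:**
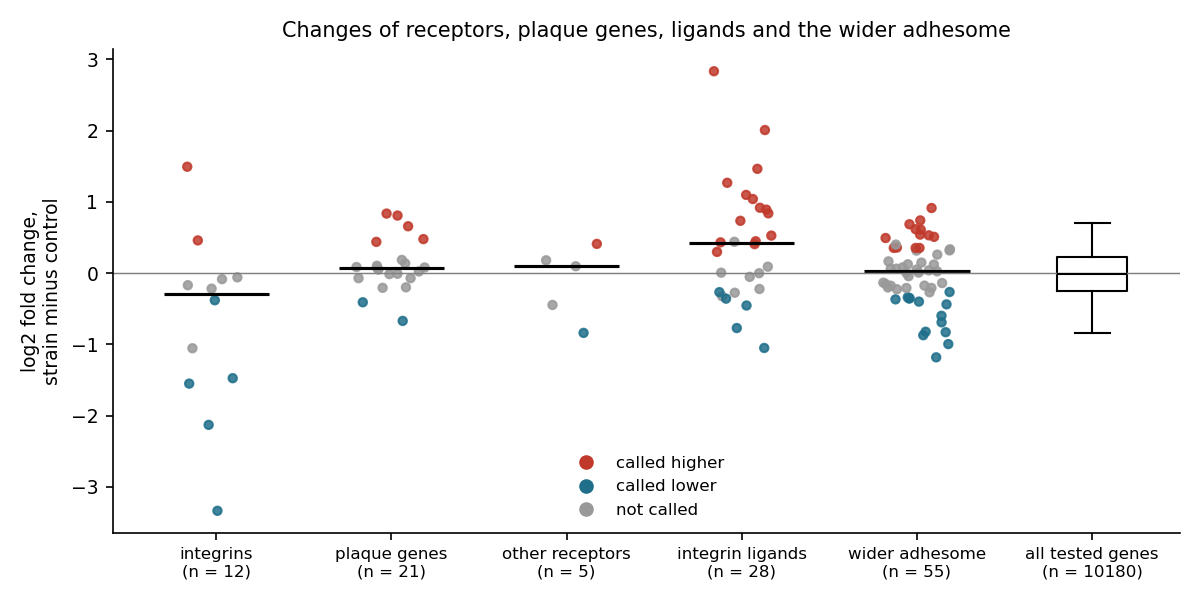
Log2 fold change (strain minus control) of each tested gene of the integrins, plaque genes, other receptors, integrin ligands and wider adhesome, with a black bar at each median, beside a box of all 10180 tested genes whose whiskers run from percentile 5 to percentile 95. Integrins spread from -3.33 to 1.49 and 18 of 28 ligand genes lie above 0, while plaque genes keep within the whiskers of all genes (-0.85 to 0.70) apart from Tln2 and Lims2.

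Markers of leukocytes, platelets and endothelial cells were low in both groups. Of 10 leukocyte and platelet markers in the files 1 passed the filter: Itgax, the αX integrin of myeloid cells, at 0.547, 0.530 and 0.785 FPKM under strain, against 1.81, 1.36 and 1.28 FPKM in controls (called lower, adjusted p = 0.005). Itgax passed only through its control values (mean 1.485 FPKM, against 0.620 under strain). Under the filter, 2 leukocyte integrins lay higher under strain without overlap. Itgal averaged 0.172 ± 0.0422 FPKM under strain and 0.0202 ± 0.0103 in controls, and Itgae 0.643 ± 0.131 and 0.391 ± 0.0185 (SD, n = 3 each). The groups of the other leukocyte and platelet markers under the filter overlapped. The summed level of the list was 1.73 to 2.16 FPKM under strain and 2.05 to 2.78 FPKM in controls. The pan-leukocyte gene Ptprc was at or below 0.0486 FPKM in every library, Itgb2, the common leukocyte β chain, at or below 0.37 FPKM, and the platelet gene Gp9 listed at 0. Of 6 endothelial markers 0 passed the filter, with sums of 0.389 to 0.54 FPKM under strain and 0.0905 to 0.304 FPKM in controls and Cdh5 and Emcn listed at 0. Pecam1 averaged 0.269 ± 0.0313 FPKM under strain and 0.0692 ± 0.0831 in controls, and Erg 0.0799 ± 0.0141 and 0.0223 ± 0.00604 (SD, n = 3 each). Both lay higher under strain without overlap, and the groups of the other endothelial markers overlapped. The part of these cells in the members' changes was not tested.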

How the data were processed

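Per the labels' protocols, RNA was isolated with TRIzol and made into Illumina libraries. The deposited files give 1 value per gene symbol for 22601 rows, taken as FPKM (never negative, not whole, with no unit in the file headers). Per the submitters' processing notes, the authors used DESeq, Cufflinks, Cuffdiff 2.2.1, HISAT2 2.0.4 and cutadapt 1.9.3 in roles not given there, and the build named is hg19, a human one, although 85.1% of the symbols matched the GRCr8 rat gene table. Coordinates are given only for RefSeq promoter windows. Whole reads could not be recovered: at most 12.8% of low values (0.003 to 0.06 FPKM) sat within 0.01 log2 units of 1 ratio between libraries. Left out were 27 rows whose symbol had become a date and 1 row with name and value run together.

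The contrast of strain with control was fitted by limma 3.58.1 (R 4.3.3) to log2(FPKM + 1) of the 10180 genes averaging 1 FPKM or more, with trend and robust moderation, two-sided, Benjamini-Hochberg adjusted over all of them. The fit was tested on simulated data. Folds without log are ratios of mean FPKM, given where both means reach 1. Members and lists were chosen with earlier results of these data known. By rule, tested members with a mean of at least 10 FPKM, or called with an absolute log2 fold change of at least 0.5, have their value in every library printed, and each wider list has its 4 largest rises and falls named, of which some are not reported here. The other genes were picked after their values were seen. The titles number replicates 1 to 3 in each group. Deviations from the group means correlated at 0.033, 0.108 and -0.116 for the same numbers, so the numbers were not taken as pairs.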

Additional observations from a re-analysis of the deposited data

How the results depend on the processing

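Alternatives were pseudocounts of 0.1 and 0.5, no filter, a filter at 5 FPKM, quantile normalization, median ratio scaling, no trend or robust moderation, the replicate block, and each library left out. No member that was called in any of them changed direction. Counts of members, integrins and plaque genes stayed within 1.5 times those reported in all but the omissions. The filter at 5 FPKM, which tests fewer genes, gave 1071 higher genes in place of 1672, and quantile normalization 9 lower genes of the wider adhesome in place of 14 (the cause was not tested). Quantile normalization also turned the balance of all calls, with 2138 genes higher and 1711 lower (55.5% of calls higher, in place of 46.3%). With single libraries left out, all genes called ranged from 1060 to 1510 higher and from 1303 to 2062 lower; members from 5 to 8 and from 7 to 9; integrins 2 and from 4 to 6; plaque genes from 3 to 5 and from 1 to 2; the wider adhesome from 7 to 16 and from 8 to 14; ligands from 12 to 16 and from 3 to 6. Fewest were called without control replicate 1 (2363 genes in all, 12 members). Replicate numbers share no stated source, and the replicate block called 3116 genes and 16 members, as many members as without it. Depth is unknown, so values under about 1 FPKM cannot be given a counting error.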
